A study of Mus musculus with 32 samples.

Results

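Fkbp5, Per1, Tsc22d3, Klf9, Sgk1, Zbtb16, Ddit4, Mt1 and Mt2 are genes that glucocorticoids raise in many cell types, and their RNA was followed here in bone marrow-derived macrophages (BMDMs). They were picked by name, after Fkbp5 and Per1 had been seen to rise in Ifnar1-/- BMDMs treated with Necrostatin-1 (Nec-1), so the values with Nec-1 in Ifnar1-/- cells chose the group and are given below as a description. All 9 were among the 16021 genes tested, and 11 of the 33151 array probes that carry a gene symbol belong to them. BMDMs from WT (C57BL/6) mice and from Ifnar1-/- mice, which lack the IFNAR1 chain of the receptor for type I interferon, were left untreated or treated for 6 h. The treatments were zVAD alone, LPS or IFNβ alone, either of these with zVAD, and either with both zVAD and Nec-1. LPS is the bacterial ligand of TLR4, zVAD inhibits caspases, Nec-1 inhibits the kinase RipK1, and an activated macrophage whose caspases are blocked can die by necroptosis. LPS was used at 100 ng/mL according to the labels, which put IFNβ at 1000 U/mL, and other parts of the study name other doses. The labels do not attach a dose of zVAD or Nec-1 to the arrays. The cells were grown from marrow with macrophage colony-stimulating factor, and no group received a glucocorticoid according to the labels. Each of the 16 groups has 2 arrays. Nothing in the labels says that the 2 arrays of a group came from separate mice or cultures, so p-values measure the spread between these arrays, which may be technical.

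The glucocorticoid receptor, encoded by Nr3c1, waits in the cytoplasm bound to HSP90 and its partners. Once it has bound hormone it enters the nucleus and sits on DNA at glucocorticoid response elements, an inverted pair of the letters AGAACA around a short spacer, from which it switches on genes. In macrophages it is known for restraining inflammatory genes, and LPS signalling and the receptor act on many of the same promoters. Most of the 9 genes also answer to other signals, among them the circadian clock (Per1), cAMP (Per1), FOXO factors (Tsc22d3, Klf9), osmotic stress (Sgk1), ATF4, hypoxia and p53 (Ddit4) and metal ions (Mt1, Mt2).

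The arrays lay on 4 slides, each with the 8 treatments of 1 genotype and 1 replicate number. Genotype and slide therefore cannot be told apart where levels of the genotypes are set side by side, whereas treatments of 1 genotype lie on the same slides. Signal well above background was reached by 54.9% to 78.1% of probes per WT array and by 44.5% to 61.6% per Ifnar1-/- array. Replicates correlated at 0.973 to 0.988 in WT and 0.947 to 0.991 in Ifnar1-/- cells, across probes, which are not independent replicates. All 9 measured macrophage markers were above background on all 32 arrays. Markers of other cell types were above background on all 32 arrays for 4 of 6 fibroblast genes (the collagens Col1a1, Col1a2 and Col3a1, and Dcn), 4 of 6 neutrophil genes, 2 of 5 B cell genes (Cd79a and Cd79b), 2 of 5 T cell genes (Cd3e and Lck), 1 of 4 dendritic cell genes (Siglech), 0 of 3 NK cell genes and 0 of 3 mast cell genes. Pdgfra (fibroblasts), Ahsp (erythroid cells) and Fcer1a (mast cells) were above background on 0 arrays, while Slc4a1 (erythroid cells) was on 31 and Mcpt4 (mast cells) on 25. The fibroblast list summed to 8.82 to 10.4 log2 in WT and 10.9 to 12.6 log2 in Ifnar1-/- arrays. The probe for Ifnar1 read 9.02 to 14.76 log2 in WT and 11.16 to 12.44 log2 in Ifnar1-/- arrays. These ranges overlap, and whether the probe lies in the deleted part of the gene is not given in the sources used here, so it does not check the genotype. With IFNβ, limma called 0 genes changed in Ifnar1-/- BMDMs (253 at an unadjusted p under 0.05) and 35.3% of genes in WT BMDMs.

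One library went against its label. The 100 genes that LPS raised most in Ifnar1-/- BMDMs stood a median of 5.09 log2 above untreated cells on replicate 1 of Ifnar1-/- LPS+zVAD+Nec-1 and 0.30 log2 above them on replicate 2. The same median was 5.48 and 5.50 on the LPS+zVAD arrays, and 0.21 and 0.51 on the IFNβ+zVAD+Nec-1 arrays. Tnf, which LPS raises, read 15.92 log2 on replicate 1 and 9.99 log2 on replicate 2, against 9.88 and 10.13 log2 in untreated cells. The library labelled Ifnar1-/- LPS+zVAD+Nec-1 replicate 2 correlated at 0.993 with Ifnar1-/- IFNβ+zVAD+Nec-1 replicate 2 and at 0.947 with its own replicate. It therefore carried no LPS response of the size seen on the other LPS arrays, and values that rest on it are also given without it where that moves them by over 1.5 times or turns them. Correlations over group means are an exception and were not computed without it. Its part in the shared estimate of the spread is shown by a fit without this pair of arrays.

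**Figure D1:**
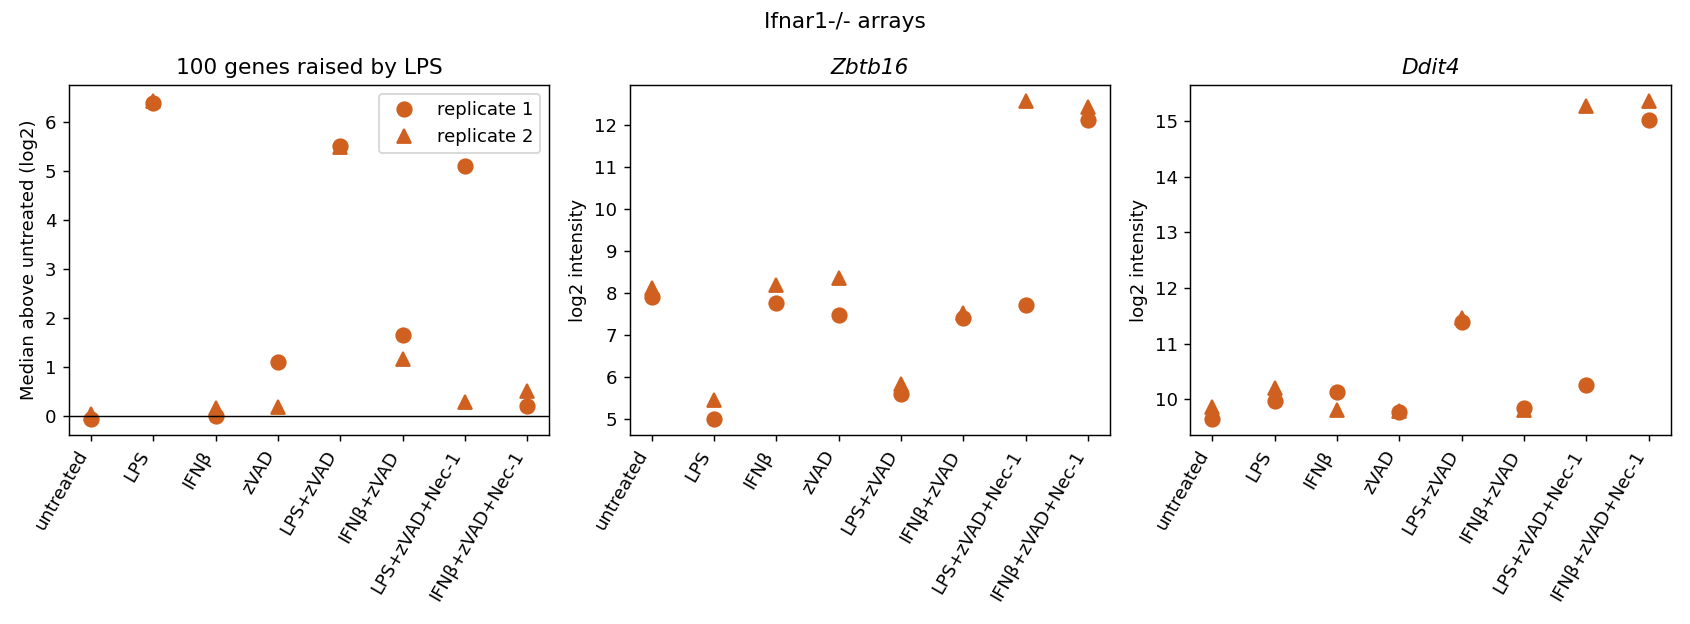
Ifnar1-/- arrays by treatment, with replicate 1 as circles and replicate 2 as triangles. The left panel plots the median rise over untreated cells (log2) of the 100 genes most raised by LPS, where LPS+zVAD+Nec-1 replicate 1 sits at 5.09 and replicate 2 at 0.30; the other panels plot the log2 intensity of Zbtb16 and Ddit4, where the same replicate 2 lies with the IFNβ+zVAD+Nec-1 arrays.

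In Ifnar1-/- BMDMs, 8 of the 9 genes were at least 2-fold higher with IFNβ+zVAD+Nec-1 than with IFNβ+zVAD, and the exception was Sgk1. Ddit4 was 41.3-fold higher, Fkbp5 28.0-fold, Zbtb16 28.0-fold, Mt2 12.05-fold, Tsc22d3 9.65-fold, Per1 6.25-fold, Klf9 4.16-fold and Mt1 2.73-fold. Of all 16003 genes measured in both groups, 3.41% were at least 2-fold higher, and since these arrays chose the group nothing is read from the difference. The median difference was 3.27 log2 over the 9 genes and 0.02 log2 over all genes. In WT BMDMs the same comparison gave log2 fold changes of 0.19 for Fkbp5 (standard error 0.38) and -0.27 for Per1 (standard error 0.39). There, limma called 0 of the 9 genes changed when Nec-1 was added to IFNβ+zVAD, with 0% of all genes called, 612 genes at an unadjusted p under 0.05 and none of the 9 genes among them. Whether the genotypes differ in their response to Nec-1 was not tested, because the Ifnar1-/- arrays chose the genes. From IFNβ+zVAD to IFNβ+zVAD+Nec-1 in Ifnar1-/- BMDMs, the summed level of the 4 dendritic cell markers was 15.33 to 15.79 and 15.25 to 15.56 log2, that of the 6 fibroblast markers 10.89 to 11.77 and 11.28 to 12.13 log2, and that of the 6 neutrophil markers 13.09 to 13.91 and 13.02 to 13.47 log2. These ranges overlapped. Those of the 5 B cell markers (10.04 to 10.12 and then 9.79 to 9.91 log2) were lower with Nec-1 without overlap. So were those of the 3 NK cell markers (6.76 to 6.77 and then 5.76 to 6.35 log2). Among all genes, 44% did not overlap between these arrays and 20.4% were lower without overlap, so nothing is read from the lack of overlap. Over the whole series, the NK cell genes were above background on 2 arrays (Ncr1), 11 (Eomes) and 17 (Klrb1c). The part of B cells and NK cells in the result was not tested. Fewer cells of a type and less RNA per cell cannot be told apart in these bulk samples.

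**Figure D2:**
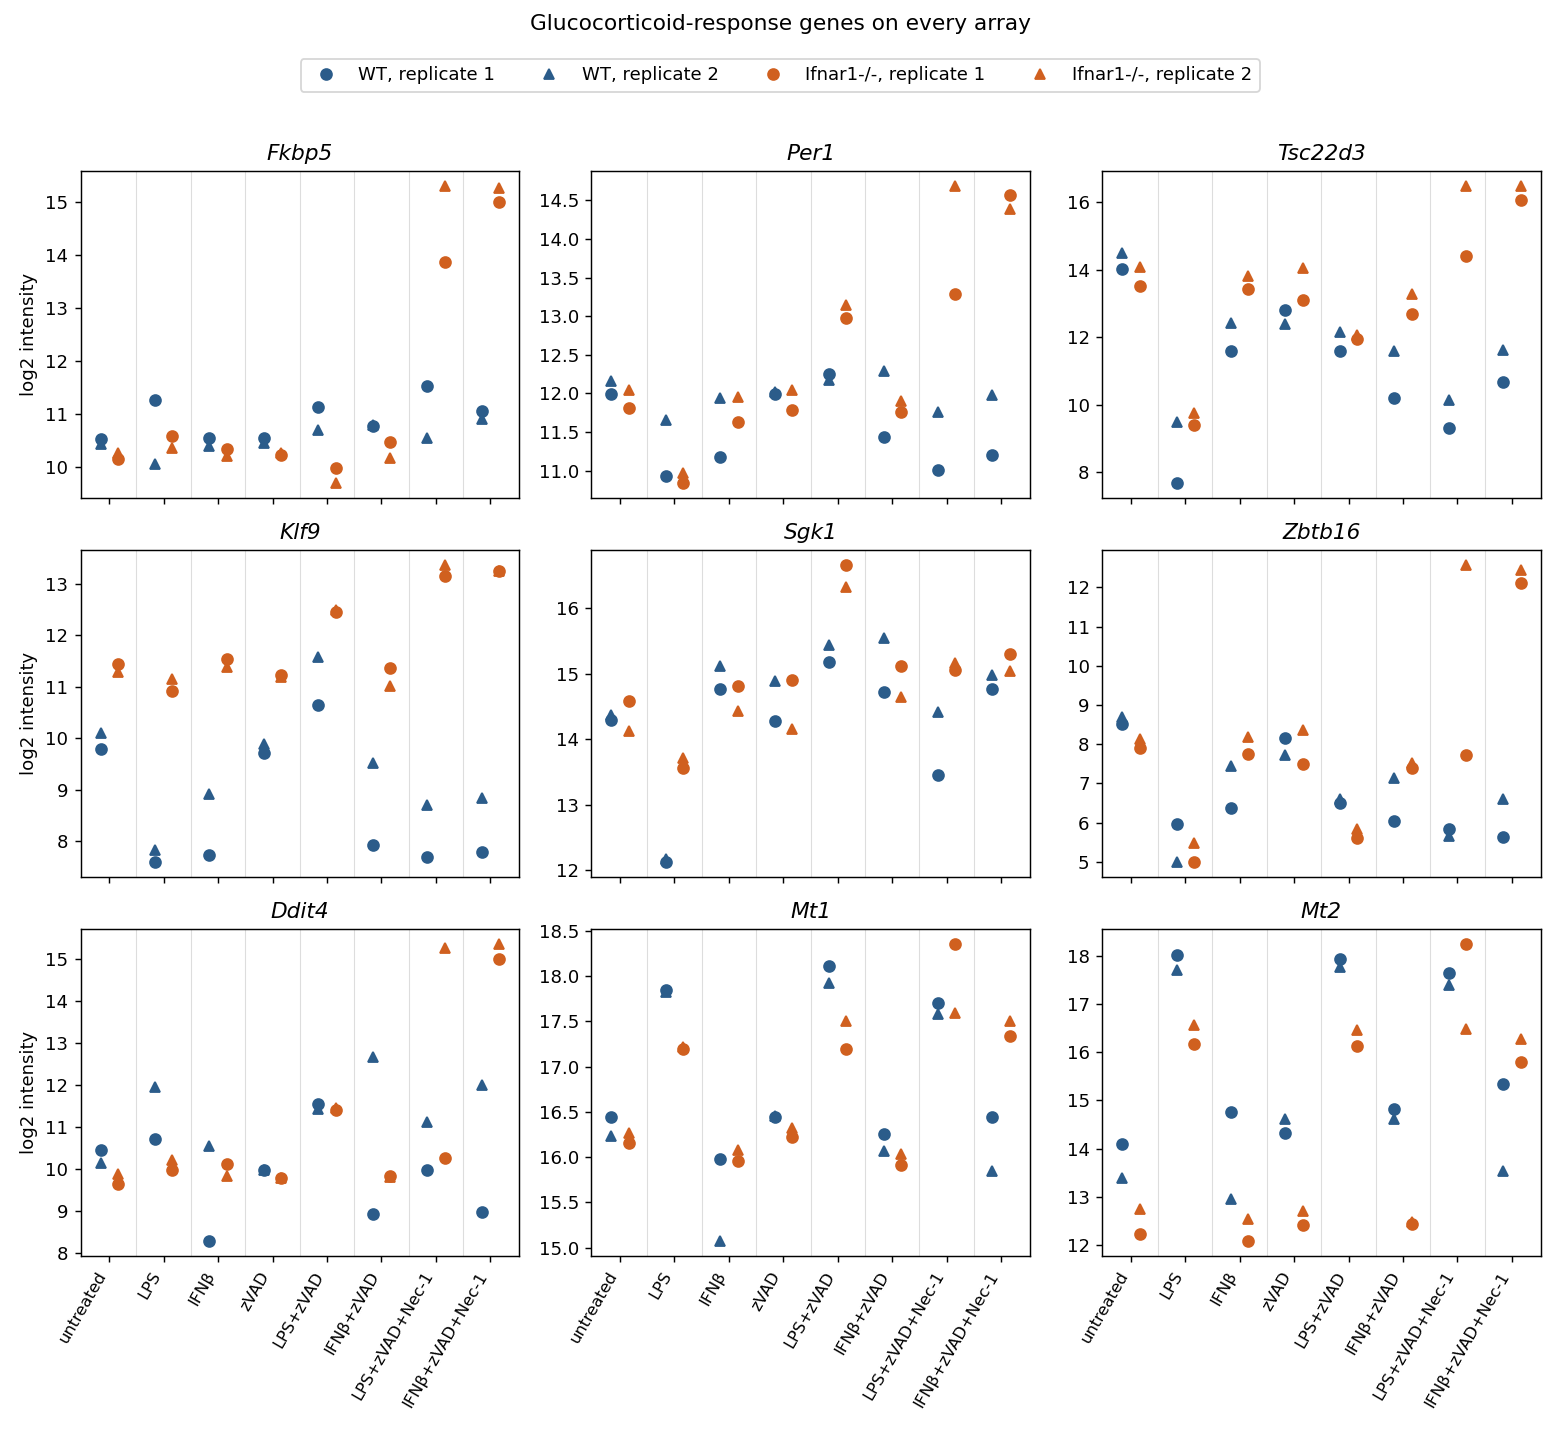
Log2 intensity of the 9 genes (1 panel each, each with its own scale) on every array, by treatment. Blue is WT, orange Ifnar1-/-, circles are replicate 1 and triangles replicate 2; Fkbp5 lies between 9.71 and 11.53 on all arrays except the 4 Ifnar1-/- arrays with Nec-1, which lie between 13.86 and 15.30.

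The DNA just before the start sites was read for matches to the elements known from these genes. RefSeq promoter entries (GRCm38.p6) existed for 8 of the 9 genes, with 16 entries of 300 bases among them, and 32851 promoters were searched in all, on both strands. The complete palindrome, AGAACA followed by NNN and TGTTCT, stood in 0.00913% of all promoters (3 in number), and 1 of these was a promoter of Sgk1, the gene of the 9 that was not 2-fold higher when Nec-1 was added to IFNβ+zVAD. Sgk1 had 6 of the 16 entries and so more chances to match. The single arm AGAACA, which the palindrome also holds on each strand, was in 19% of promoters and in 4 of the 16 entries, those of Tsc22d3 and Sgk1. CACGTG, the E-box that the clock factors bind, was in 7.15% of promoters and in 3 of the 16 entries, those of Fkbp5, Per1 and Sgk1. The metal response letters TGCACNC were in 12.6% and TGCGCNC in 15.4% of promoters, and in 2 and 5 of the 16 entries. Mt1 and Mt2 held both, while entries of Per1, Sgk1 and Ddit4 held the second. TGACGTCA, the complete cAMP response element, was in 1.79% of promoters and in none of the 16 entries. These are letter matches in short windows and show no binding, and glucocorticoid response elements often lie farther away.
The 250 bases before the start site are shown for the 2 genes that chose the group, for the Sgk1 promoter with the palindrome, and for the 2 metallothionein genes, which moved together. Each run is written 5′ to 3′ on the gene's own strand, with the matches named here in capitals. The windows are chr17:28486150-28486399 (minus strand) for Fkbp5, chr11:69098699-69098948 (plus) for Per1, chr10:21993640-21993889 (plus) for Sgk1, chr8:94178839-94179088 (plus) for Mt1 and chr8:94172368-94172617 (plus) for Mt2. In Fkbp5 and Per1 the capitals mark CACGTG, and in Sgk1 they mark CACGTG running into an arm that overlaps it, then the palindrome. They mark TGCACNC in Mt1, and in Mt2 both TGCACNC and TGCGCNC, read on either strand.
Fkbp5: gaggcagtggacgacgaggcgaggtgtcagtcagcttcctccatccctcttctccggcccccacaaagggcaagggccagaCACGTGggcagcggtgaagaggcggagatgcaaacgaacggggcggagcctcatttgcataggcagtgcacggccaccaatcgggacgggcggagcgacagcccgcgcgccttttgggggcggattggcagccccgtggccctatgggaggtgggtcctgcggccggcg
Per1: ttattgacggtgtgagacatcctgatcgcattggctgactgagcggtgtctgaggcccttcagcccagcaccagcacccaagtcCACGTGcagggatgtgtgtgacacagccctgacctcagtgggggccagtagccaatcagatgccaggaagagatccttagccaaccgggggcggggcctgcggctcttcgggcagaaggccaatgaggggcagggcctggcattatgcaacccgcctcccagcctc
Sgk1: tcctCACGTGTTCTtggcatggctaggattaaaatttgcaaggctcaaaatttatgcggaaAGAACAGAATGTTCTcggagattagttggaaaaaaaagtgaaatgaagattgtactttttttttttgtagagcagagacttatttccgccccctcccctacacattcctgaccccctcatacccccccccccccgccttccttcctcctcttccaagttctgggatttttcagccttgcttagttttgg
Mt1: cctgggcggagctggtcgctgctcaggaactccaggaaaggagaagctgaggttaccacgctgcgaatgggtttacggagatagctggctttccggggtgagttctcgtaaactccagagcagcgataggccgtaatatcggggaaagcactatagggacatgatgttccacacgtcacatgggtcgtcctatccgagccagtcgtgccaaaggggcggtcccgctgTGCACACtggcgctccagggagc
Mt2: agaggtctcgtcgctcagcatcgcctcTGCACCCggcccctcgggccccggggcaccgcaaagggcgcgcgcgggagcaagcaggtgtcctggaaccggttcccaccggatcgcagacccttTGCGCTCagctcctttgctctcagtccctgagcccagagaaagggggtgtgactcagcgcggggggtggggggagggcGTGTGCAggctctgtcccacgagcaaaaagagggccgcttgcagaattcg

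Fkbp5 encodes FKBP51, an HSP90 partner that lowers the hormone affinity of the glucocorticoid receptor and so acts as its feedback brake. Its probe covers 28536060 to 28536119 of chromosome 17 (mm9). On WT arrays its log2 intensity, with replicate 1 first, was 10.53 and 10.44 in untreated cells, 11.28 and 10.07 with LPS, 10.56 and 10.41 with IFNβ, and 10.55 and 10.45 with zVAD. It was 11.14 and 10.71 with LPS+zVAD, 10.78 and 10.80 with IFNβ+zVAD, 11.53 and 10.56 with LPS+zVAD+Nec-1, and 11.06 and 10.90 with IFNβ+zVAD+Nec-1. The WT arrays thus spanned 10.07 to 11.53 log2, and limma called Fkbp5 in none of the WT comparisons. Among Ifnar1-/- arrays it was 10.16 and 10.27 in untreated cells, 10.59 and 10.37 with LPS, 10.35 and 10.21 with IFNβ, and 10.23 and 10.27 with zVAD. With 2 or 3 agents it was 9.98 and 9.71 with LPS+zVAD, 10.48 and 10.17 with IFNβ+zVAD, 13.86 and 15.30 with LPS+zVAD+Nec-1, and 15.002 and 15.27 with IFNβ+zVAD+Nec-1. The 4 Ifnar1-/- arrays with Nec-1 stood apart from the other 28 arrays, and they included LPS+zVAD+Nec-1 replicate 1, whose LPS response was present. Relative to LPS+zVAD the Nec-1 difference was 4.73 log2 with both arrays and 4.01 log2 without replicate 2.

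Per1 is a repressor of the circadian clock and an early glucocorticoid target. Its brighter probe lies on mm9 chromosome 11, from 68923364 to 68923423. WT arrays read 11.998 and 12.16 in untreated cells, 10.93 and 11.66 with LPS, 11.17 and 11.94 with IFNβ, and 11.99 and 12.02 with zVAD. With combined agents they read 12.25 and 12.18 with LPS+zVAD, 11.44 and 12.28 with IFNβ+zVAD, 11.01 and 11.76 with LPS+zVAD+Nec-1, and 11.21 and 11.97 with IFNβ+zVAD+Nec-1. Replicate 1 was the lower array in every WT group except LPS+zVAD. Ifnar1-/- arrays read 11.81 and 12.04 in untreated cells, 10.84 and 10.97 with LPS, 11.63 and 11.95 with IFNβ, and 11.78 and 12.04 with zVAD. The combinations gave 12.97 and 13.15 with LPS+zVAD, 11.76 and 11.91 with IFNβ+zVAD, 13.28 and 14.69 with LPS+zVAD+Nec-1, and 14.57 and 14.39 with IFNβ+zVAD+Nec-1. Here LPS+zVAD lay 2.16 log2 above LPS before any Nec-1 was added, and Nec-1 added 0.92 log2 to it, or 0.31 log2 on the slide of replicate 1 and 1.54 log2 on the slide of replicate 2. The second Per1 probe (mm9 chromosome 11, 68919895 to 68919954), above background on 30 of 32 arrays at 5.16 to 7.12 log2, differed by -0.05 and -0.14 log2 with Nec-1 in the 2 Ifnar1-/- arms, so the probes of this gene disagree.

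Tsc22d3, Klf9 and Zbtb16 encode regulators of transcription. Tsc22d3 encodes GILZ, a leucine zipper protein that binds NF-κB and AP-1 and carries part of the anti-inflammatory action of glucocorticoids. Its probe (mm9 chromosome X, 137074094 to 137074153) read 14.03 and 14.49 in untreated cells, 7.69 and 9.50 with LPS, 11.59 and 12.42 with IFNβ, and 12.81 and 12.40 with zVAD in WT BMDMs. It read 11.59 and 12.15 with LPS+zVAD, 10.21 and 11.60 with IFNβ+zVAD, 9.31 and 10.15 with LPS+zVAD+Nec-1, and 10.68 and 11.62 with IFNβ+zVAD+Nec-1. Untreated WT cells held the highest level, and every treated WT array lay below both untreated arrays. Ifnar1-/- BMDMs gave 13.51 and 14.09 in untreated cells, 9.39 and 9.75 with LPS, 13.44 and 13.82 with IFNβ, and 13.11 and 14.03 with zVAD. They gave 11.94 and 12.05 with LPS+zVAD, 12.70 and 13.29 with IFNβ+zVAD, 14.40 and 16.48 with LPS+zVAD+Nec-1, and 16.04 and 16.48 with IFNβ+zVAD+Nec-1. Both IFNβ+zVAD+Nec-1 arrays and the library labelled LPS+zVAD+Nec-1 replicate 2 passed 16 log2, above every WT array, and replicate 1 of that group reached 14.40 log2. The Nec-1 difference over LPS+zVAD was 3.44 log2, and 2.41 log2 without replicate 2.

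Klf9 encodes a Krüppel-like repressor that glucocorticoids and thyroid hormone induce. The probe lies on mm9 chromosome 19, from 23240410 to 23240469. In WT BMDMs it read 9.79 and 10.09 in untreated cells, 7.59 and 7.83 with LPS, 7.73 and 8.91 with IFNβ, and 9.71 and 9.88 with zVAD. Combined treatments gave 10.65 and 11.58 with LPS+zVAD, 7.93 and 9.51 with IFNβ+zVAD, 7.69 and 8.70 with LPS+zVAD+Nec-1, and 7.79 and 8.84 with IFNβ+zVAD+Nec-1. LPS+zVAD was the highest WT group, and both LPS+zVAD+Nec-1 arrays lay below both untreated arrays. The Ifnar1-/- arrays were at 11.44 and 11.29 in untreated cells, 10.92 and 11.14 with LPS, 11.54 and 11.37 with IFNβ, and 11.22 and 11.19 with zVAD. They were at 12.44 and 12.49 with LPS+zVAD, 11.36 and 11.02 with IFNβ+zVAD, 13.15 and 13.36 with LPS+zVAD+Nec-1, and 13.23 and 13.25 with IFNβ+zVAD+Nec-1. All 16 Ifnar1-/- arrays lay at 10.92 log2 or above, and LPS+zVAD+Nec-1 lay above LPS+zVAD by 0.71 and 0.87 log2 on the slides of replicate 1 and 2.

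Zbtb16 encodes PLZF, a zinc finger repressor whose induction by glucocorticoids is steep in many tissues. Its probe is on mm9 chromosome 9, from 48462419 to 48462478. WT BMDMs gave 8.50 and 8.70 in untreated cells, 5.96 and 4.99 with LPS, 6.38 and 7.45 with IFNβ, and 8.16 and 7.71 with zVAD. With combinations they gave 6.50 and 6.60 with LPS+zVAD, 6.05 and 7.14 with IFNβ+zVAD, 5.85 and 5.65 with LPS+zVAD+Nec-1, and 5.62 and 6.61 with IFNβ+zVAD+Nec-1. Both untreated WT arrays were above all treated WT arrays. In the other genotype Zbtb16 read 7.91 and 8.13 in untreated cells, 5.01 and 5.47 with LPS, 7.76 and 8.18 with IFNβ, and 7.49 and 8.36 with zVAD. The combinations read 5.60 and 5.83 with LPS+zVAD, 7.40 and 7.53 with IFNβ+zVAD, 7.73 and 12.58 with LPS+zVAD+Nec-1, and 12.11 and 12.43 with IFNβ+zVAD+Nec-1. With LPS+zVAD+Nec-1, replicate 1 stayed below the untreated arrays at 7.73 log2 while the library labelled replicate 2 was at 12.58 log2, so the difference from LPS+zVAD was 4.44 log2 with both arrays and 2.01 log2 without replicate 2.

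Sgk1 and Ddit4 act in PI3K and mTOR signalling. Sgk1 is a kinase related to AKT that glucocorticoids and mineralocorticoids induce. Its probe (mm9 chromosome 10, 21719507 to 21719566) read 14.29 and 14.38 in untreated cells, 12.13 and 12.18 with LPS, 14.76 and 15.12 with IFNβ, and 14.28 and 14.89 with zVAD on WT arrays. It read 15.18 and 15.44 with LPS+zVAD, 14.72 and 15.55 with IFNβ+zVAD, 13.46 and 14.42 with LPS+zVAD+Nec-1, and 14.77 and 14.98 with IFNβ+zVAD+Nec-1. LPS gave the lowest WT level and LPS+zVAD one of the highest. Ifnar1-/- arrays were at 14.58 and 14.12 in untreated cells, 13.56 and 13.72 with LPS, 14.81 and 14.44 with IFNβ, and 14.90 and 14.16 with zVAD. Combined agents put them at 16.67 and 16.33 with LPS+zVAD, 15.12 and 14.64 with IFNβ+zVAD, 15.06 and 15.16 with LPS+zVAD+Nec-1, and 15.30 and 15.04 with IFNβ+zVAD+Nec-1. LPS+zVAD was again the highest group. With Nec-1 Sgk1 differed by -1.60 log2 on the slide of replicate 1, where Ddit4 differed by -1.14 log2 and the remaining genes were higher. On the slide of replicate 2 Sgk1 differed by -1.17 log2 and the other 8 genes were higher, but that library went against its label. Without it the Sgk1 difference was -1.43 log2. With IFNβ+zVAD the Nec-1 difference was 0.29 log2 and the arrays overlapped.

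Ddit4 encodes REDD1, an inhibitor of mTORC1. The probe is on mm9 chromosome 10, from 59412486 to 59412545. WT arrays gave 10.44 and 10.15 in untreated cells, 10.71 and 11.96 with LPS, 8.27 and 10.54 with IFNβ, and 9.97 and 9.97 with zVAD. They gave 11.55 and 11.43 with LPS+zVAD, 8.93 and 12.67 with IFNβ+zVAD, 9.98 and 11.12 with LPS+zVAD+Nec-1, and 8.97 and 12.001 with IFNβ+zVAD+Nec-1. Replicates of WT groups were as far apart as 8.93 and 12.67 log2, and the standard error was 1.24 log2 for each Ddit4 comparison of 2 groups and 1.76 log2 for each interaction. Ifnar1-/- arrays gave 9.65 and 9.87 in untreated cells, 9.97 and 10.20 with LPS, 10.13 and 9.82 with IFNβ, and 9.77 and 9.79 with zVAD. They gave 11.39 and 11.46 with LPS+zVAD, 9.84 and 9.81 with IFNβ+zVAD, 10.25 and 15.28 with LPS+zVAD+Nec-1, and 15.02 and 15.36 with IFNβ+zVAD+Nec-1. The widest pair of all was that with LPS+zVAD+Nec-1, at 10.25 and 15.28 log2, and a fit without it gave a standard error of 0.96 log2 for WT comparisons of 2 groups. Against LPS+zVAD, Ddit4 was 1.34 log2 higher with both arrays, 1.17 log2 lower without replicate 2 (a difference of -1.17) and 3.85 log2 higher without replicate 1.

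Mt1 and Mt2 encode metallothioneins, small cysteine-rich proteins that bind zinc and copper and are switched on by metal ions through MTF1, by glucocorticoids and by inflammatory signals. The genes neighbour each other, with probes on mm9 chromosome 8 from 96704165 to 96704224 (Mt1) and from 96697371 to 96697430 (Mt2). Mt1 read 16.44 and 16.23 in untreated cells, 17.84 and 17.82 with LPS, 15.98 and 15.07 with IFNβ, and 16.45 and 16.45 with zVAD in WT BMDMs. It read 18.11 and 17.92 with LPS+zVAD, 16.26 and 16.07 with IFNβ+zVAD, 17.70 and 17.58 with LPS+zVAD+Nec-1, and 16.44 and 15.85 with IFNβ+zVAD+Nec-1. Every WT array with LPS lay above every WT array without it. Without Ifnar1, Mt1 read 16.15 and 16.26 in untreated cells, 17.19 and 17.22 with LPS, 15.96 and 16.08 with IFNβ, and 16.22 and 16.32 with zVAD. Combined agents gave 17.20 and 17.50 with LPS+zVAD, 15.91 and 16.04 with IFNβ+zVAD, 18.35 and 17.60 with LPS+zVAD+Nec-1, and 17.34 and 17.50 with IFNβ+zVAD+Nec-1. Both IFNβ+zVAD+Nec-1 arrays lay above both LPS arrays of the same genotype. With IFNβ+zVAD+Nec-1 against IFNβ+zVAD in Ifnar1-/- BMDMs, the second Mt1 probe (96703844 to 96703903) differed by 1.51 log2, beside 1.45 log2 for the first. The probes disagreed elsewhere. Between LPS+zVAD and LPS the difference of the second probe was 1.96 log2 for WT and 1.13 log2 for Ifnar1-/- BMDMs, where the first differed by 0.18 and 0.14 log2. With LPS+zVAD+Nec-1 against LPS+zVAD in Ifnar1-/- BMDMs the second differed by -0.06 log2 and the first by 0.63 log2. On the slide of replicate 1 both were higher, by 0.48 log2 (second) and 1.16 log2 (first). With the library labelled replicate 2, which went against its label, they differed by -0.61 and 0.10 log2.
Mt2 read 14.09 and 13.38 in untreated cells, 18.02 and 17.71 with LPS, 14.75 and 12.95 with IFNβ, and 14.32 and 14.61 with zVAD on WT arrays. It read 17.95 and 17.77 with LPS+zVAD, 14.82 and 14.61 with IFNβ+zVAD, 17.64 and 17.41 with LPS+zVAD+Nec-1, and 15.35 and 13.54 with IFNβ+zVAD+Nec-1. As for Mt1, LPS set the high groups. The other genotype gave 12.23 and 12.74 in untreated cells, 16.16 and 16.58 with LPS, 12.07 and 12.54 with IFNβ, and 12.42 and 12.70 with zVAD. It gave 16.12 and 16.46 with LPS+zVAD, 12.43 and 12.47 with IFNβ+zVAD, 18.25 and 16.48 with LPS+zVAD+Nec-1, and 15.81 and 16.27 with IFNβ+zVAD+Nec-1. With LPS+zVAD+Nec-1 the order of the arrays was the reverse of that in Zbtb16 and Ddit4. Mt2 was 2.13 log2 above LPS+zVAD on the slide of replicate 1 and 0.02 log2 above it on the slide of replicate 2.

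**Figure D3:**
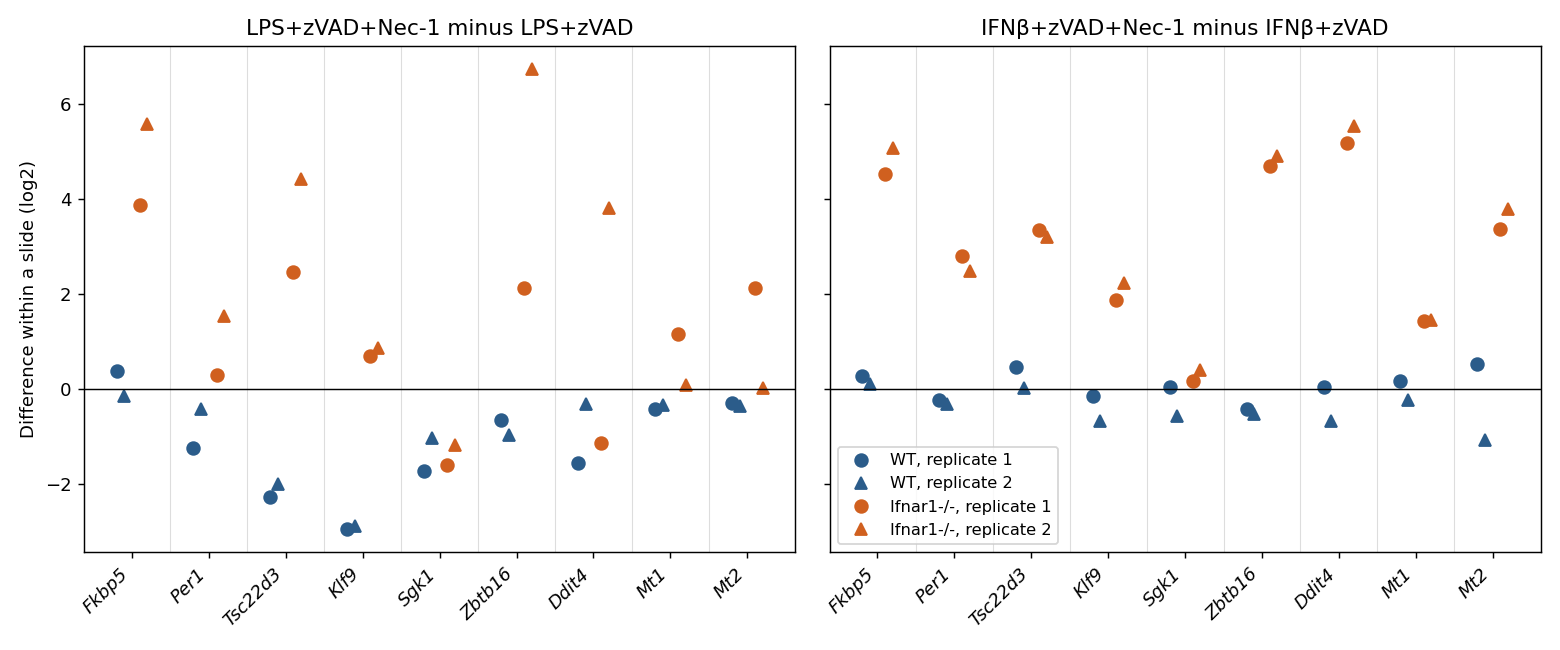
Difference made by Nec-1 (log2), within each slide, for the 9 genes, with LPS+zVAD as the baseline on the left and IFNβ+zVAD on the right. Blue is WT, orange Ifnar1-/-, circles are replicate 1 and triangles replicate 2; with IFNβ+zVAD all Ifnar1-/- points except those of Sgk1 lie at 1.43 or above, while the WT points lie between -1.07 and 0.53.

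LPS lowered 4 of the 9 genes in WT BMDMs and raised the 2 metallothionein genes. Tsc22d3 was 50.7-fold lower (log2 fold change -5.66, standard error 0.63, adjusted p = 1.7e-06 from limma), Zbtb16 8.73-fold lower (adjusted p = 0.0087), Klf9 4.69-fold lower (adjusted p = 0.00066) and Sgk1 4.53-fold lower (adjusted p = 3.6e-05). Mt2 rose 17.5-fold (log2 fold change 4.13, standard error 0.57, adjusted p = 1.5e-05) and Mt1 2.82-fold (adjusted p = 0.00014). Of all genes, 41.2% were called (24.8% lower and 16.3% higher), against 6 of these 9. Per1 had a log2 fold change of -0.79 (adjusted p = 0.12), Fkbp5 of 0.19 and Ddit4 of 1.04. With the replicate numbers, which share a slide, as a block, limma also called Per1 (adjusted p = 0.030), with 53.9% of all genes. The Zbtb16 call was lost without WT LPS replicate 2 and without WT untreated replicate 2. Leaving out single arrays gave log2 fold changes from -3.61 to -2.64. Of 13 alternative settings, 11 kept the call, with a lowest adjusted p of 1.0e-05 from limma.

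LPS in Ifnar1-/- BMDMs lowered Tsc22d3 18.8-fold (log2 fold change -4.23, standard error 0.63, adjusted p = 0.00015 from limma) and Zbtb16 6.89-fold (adjusted p = 0.029), and raised Mt2 14.8-fold (adjusted p = 0.00013) and Mt1 1.99-fold (adjusted p = 0.0079). These 4 of 9 compare with 24.8% of all genes, 13.9% lower and 10.9% higher. Klf9, at a log2 fold change of -0.34 (standard error 0.46), and Sgk1, at -0.72 (standard error 0.33), did not pass. With the replicate block, Per1 (log2 fold change -1.02, adjusted p = 0.010) and Sgk1 (adjusted p = 0.017) were called as well, with 38.6% of all genes. Without any 1 of the 4 arrays compared the Zbtb16 call was lost, at log2 fold changes from -3.02 to -2.55. Of the 13 alternative settings, these among them, 7 kept the call (lowest adjusted p = 6.7e-05 from limma) and 6 lost it. The Zbtb16 standard error of 0.90 log2 takes in the Ifnar1-/- LPS+zVAD+Nec-1 pair, which read 7.73 and 12.58 log2. Without Ifnar1-/- untreated replicate 1 the Mt1 call was lost too (log2 fold change 0.94, adjusted p = 0.059).

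The difference between the genotypes in the LPS response, tested as an interaction, was called by limma for 0 of the 9 genes and for 6.62% of all genes. Sgk1 came closest, its fall being 1.46 log2 smaller in Ifnar1-/- BMDMs (standard error 0.46, adjusted p = 0.065, unadjusted p = 0.0051), followed by Klf9 at 1.89 log2 (standard error 0.64, adjusted p = 0.089, unadjusted p = 0.0087). These were the 2 genes of the 9 with an unadjusted p under 0.05. With the replicate block both were called (adjusted p = 0.0046 for Sgk1 and 0.0026 for Klf9), with 16.8% of all genes. Mt1 and Mt2 differed by -0.50 and -0.24 log2 between the genotypes, with standard errors of 0.36 and 0.80.

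IFNβ lowered 3 of the 9 genes in WT BMDMs, against 35.3% of all genes changed and, by direction, 21.6% lowered and 13.7% raised. Tsc22d3 was 4.77-fold lower (log2 fold change -2.25, standard error 0.63, adjusted p = 0.0093 from limma), Klf9 3.08-fold lower (adjusted p = 0.0092) and Mt1 1.76-fold lower (adjusted p = 0.019). The fall of Mt1 depended on the scaling of the arrays, at -0.31 log2 (adjusted p = 0.54) when arrays were scaled by their 75th percentile instead, and it was -0.36 log2 (adjusted p = 0.36) without WT IFNβ replicate 2 and -0.70 log2 (adjusted p = 0.12) without WT untreated replicate 1. Without WT IFNβ replicate 1, Tsc22d3 (adjusted p = 0.094) and Klf9 (log2 fold change -1.03, adjusted p = 0.16) lost the call, and so they did without WT untreated replicate 2 (adjusted p = 0.073 and 0.071). With the replicate block Sgk1 was called as well (log2 fold change 0.61, adjusted p = 0.032), with 49.3% of all genes. When the pair of Ifnar1-/- arrays with LPS+zVAD+Nec-1 was left out of the fit, Zbtb16 was called lower (log2 fold change -1.69, adjusted p = 0.0039).

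Ifnar1-/- BMDMs gave limma no call with IFNβ, 0 of 9 genes and 0% of all genes, and none of the 9 had an unadjusted p under 0.05. The 9 log2 fold changes lay between -0.19 and 0.27. For the interaction of genotype and IFNβ, 0 of the 9 genes and 18.8% of all genes were called. Klf9 (1.71 log2, standard error 0.64, adjusted p = 0.072, unadjusted p = 0.016) and Tsc22d3 (2.08 log2, standard error 0.90, adjusted p = 0.12, unadjusted p = 0.032) had the lowest p-values. Under the replicate block both were called (adjusted p = 0.0023 and 0.013), with 33.8% of all genes. Without WT IFNβ replicate 2 the Klf9 difference was 2.30 log2 and was called (adjusted p = 0.027).

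**Figure D4:**
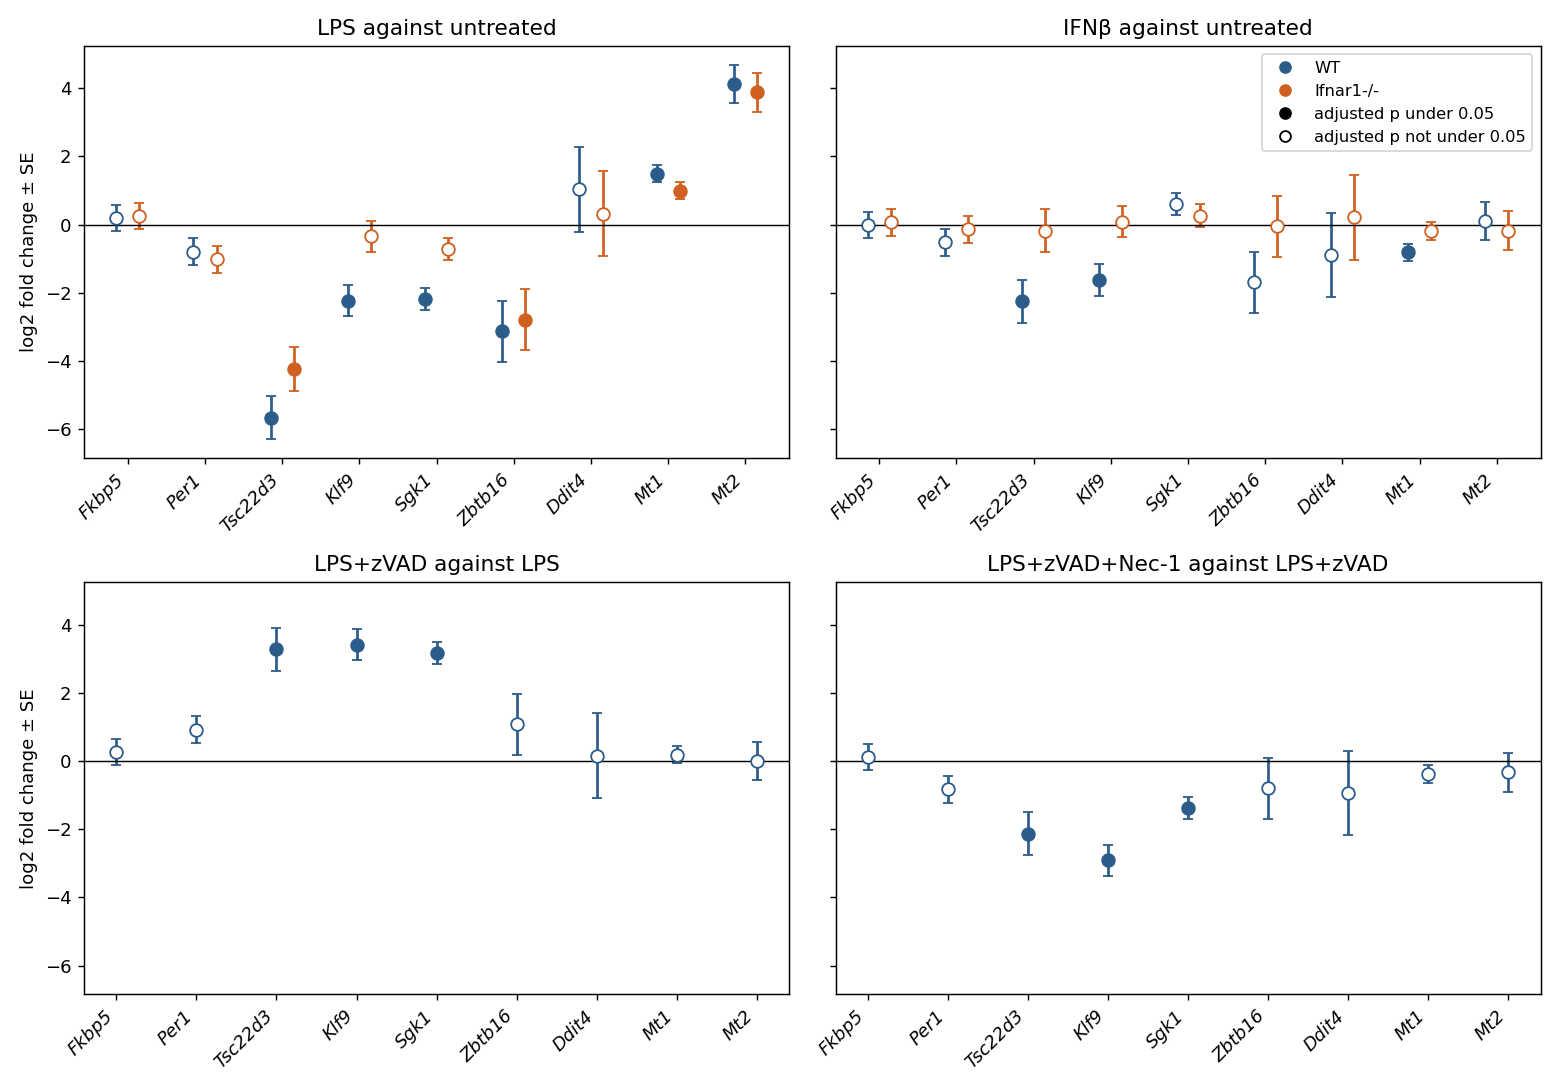
Log2 fold change with its standard error from limma for the 9 genes. The top panels show LPS and IFNβ against untreated cells in WT (blue) and Ifnar1-/- (orange) BMDMs, the bottom panels LPS+zVAD against LPS and LPS+zVAD+Nec-1 against LPS+zVAD in WT BMDMs; filled points have an adjusted p under 0.05, and the 3 filled genes of the bottom panels, Tsc22d3, Klf9 and Sgk1, rise with zVAD and fall with Nec-1.

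With zVAD alone, limma called none of the 9 genes. In WT BMDMs 0 of 9 were called, with 0.00624% of all genes, which is 1 gene, and 900 genes had an unadjusted p under 0.05. Tsc22d3 was the 1 gene of the 9 among them, at a log2 fold change of -1.66 (unadjusted p = 0.017, adjusted p = 0.72). In Ifnar1-/- BMDMs 0 of 9 and 0% of all genes were called, with 61 genes and none of the 9 at an unadjusted p under 0.05. The interaction called 0 of 9 and 0% of all genes, with 162 genes and none of the 9 at an unadjusted p under 0.05. The largest difference between the genotypes among the 9 was that of Tsc22d3, 1.43 log2 (standard error 0.90).

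Added to LPS, zVAD raised 3 of the genes that LPS lowered in WT BMDMs. The comparison of LPS with untreated cells and this one share the WT LPS arrays, so they are not independent. Klf9 was 10.6-fold higher with LPS+zVAD than with LPS (log2 fold change 3.40, standard error 0.46, adjusted p = 1.5e-05 from limma), Tsc22d3 9.68-fold higher (adjusted p = 0.00051) and Sgk1 8.94-fold higher (adjusted p = 1.0e-06). These 3 of 9 compare with 34.7% of all genes called, 12.9% higher and 21.8% lower. Klf9 and Sgk1 thereby passed their untreated levels, at means of 11.12 against 9.94 log2 and 15.31 against 14.33 log2, and Tsc22d3, at 11.87 against 14.26 log2, did not. Mt1 and Mt2, already high with LPS, had log2 fold changes of 0.18 and -0.01 (standard errors 0.26 and 0.57). Per1 had a log2 fold change of 0.92 (adjusted p = 0.079). With the replicate block it was called (adjusted p = 0.015, with 48.1% of all genes), as it was when both Ifnar1-/- arrays with LPS+zVAD+Nec-1 were left out (adjusted p = 0.032).
In Ifnar1-/- BMDMs the same comparison is a description, since its LPS+zVAD arrays were the baseline of the choice. Per1 (2.16 log2), Tsc22d3 (2.43), Klf9 (1.44), Sgk1 (2.86) and Ddit4 (1.34) were at least 2-fold higher, 5 of 9 genes against 5.99% of all genes. Fkbp5 differed by -0.64 log2. With IFNβ+zVAD against IFNβ, 0 of 9 genes were at least 2-fold higher in Ifnar1-/- BMDMs, against 1.69% of all genes, and in WT BMDMs limma called 0 of 9 and 0% of all genes. At an unadjusted p under 0.05 there were 636 genes in WT, with Mt1 as the 1 gene of the 9 (0.64 log2, unadjusted p = 0.023, adjusted p = 1.0).

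Nec-1 lowered the same 3 genes in WT BMDMs treated with LPS+zVAD. Klf9 came to a mean of 8.20 log2, against 7.71 log2 with LPS alone, while Sgk1, at 13.94 against 12.15 log2, and Tsc22d3, at 9.73 against 8.59 log2, stayed farther above LPS. Relative to LPS+zVAD, Klf9 was 7.56-fold lower with LPS+zVAD+Nec-1 (log2 fold change -2.92, standard error 0.46, adjusted p = 0.00011 from limma), Tsc22d3 4.41-fold lower (adjusted p = 0.016) and Sgk1 2.59-fold lower (adjusted p = 0.0035). Of all genes 28.5% were called, 9.77% lower and 18.7% higher, against these 3 of 9. This comparison and the one before share the WT LPS+zVAD arrays. Fkbp5, which stood 4.73 log2 higher with Nec-1 in Ifnar1-/- BMDMs, had a log2 fold change of 0.12 here (standard error 0.38, adjusted p = 0.87), and Zbtb16 of -0.81 (standard error 0.90, adjusted p = 0.58). With the replicate block Per1 was called lower (log2 fold change -0.83, adjusted p = 0.029, with 42.3% of all genes). A fit of the 4 arrays compared called 0 of the 9 and 0% of all genes. Without WT LPS+zVAD+Nec-1 replicate 1, Tsc22d3 (adjusted p = 0.13) and Sgk1 (log2 fold change -0.89, adjusted p = 0.088) lost the call, and without WT LPS+zVAD replicate 2 Tsc22d3 did (adjusted p = 0.13).
In Ifnar1-/- BMDMs, 5 of the 9 genes were at least 2-fold higher with LPS+zVAD+Nec-1 than with LPS+zVAD, against 9.24% of all genes, and these were Fkbp5, Zbtb16, Tsc22d3, Ddit4 and Mt2. Without the library labelled replicate 2 the number was also 5, against 5.76% of all genes. Ddit4 (-1.17 log2) was then no longer among them and Mt1 (1.01 log2) was. Per1 then differed by 0.22 log2.

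The receptor itself was measured in both genotypes. Nr3c1 was above background on all 32 arrays, at 13.74 to 14.66 log2 in WT (median 13.99) and 12.89 to 14.39 log2 in Ifnar1-/- BMDMs (median 13.28). LPS raised it by 0.75 log2 in WT (adjusted p = 0.0085 from limma) and by 1.06 log2 in Ifnar1-/- BMDMs (adjusted p = 0.0015). On the Ifnar1-/- Nec-1 arrays, Nr3c1 read 14.06 and 13.08 log2 with LPS+zVAD+Nec-1 and 12.89 and 12.90 log2 with IFNβ+zVAD+Nec-1. Those last 2 values were the lowest of all 32 arrays. Nr3c2, the mineralocorticoid receptor, was above background on 15 of 16 WT and 4 of 16 Ifnar1-/- arrays. Hsd11b1, whose enzyme regenerates active glucocorticoid, read 6.53 to 7.40 log2 throughout.
Of the 23 measured genes of the receptor machinery (chaperones, coregulators and the exporters that pump steroids out), limma called 5 higher and 4 lower with LPS in WT and 3 higher and 2 lower in Ifnar1-/- BMDMs, beside 41.2% and 24.8% of all genes called. Stip1, an HSP90 co-chaperone, rose by 1.88 log2 in WT (adjusted p = 9.0e-05) and by 1.76 log2 in Ifnar1-/- BMDMs (adjusted p = 0.00049). With LPS+zVAD in WT, 6 were higher and 3 lower (34.7% of all genes called), the exporter genes Abcb1a (2.79 log2, adjusted p = 0.0015) and Abcb1b (2.55 log2, adjusted p = 3.8e-06) among the higher. With Nec-1 2 were higher and 4 lower (28.5% of all genes called), Abcb1b among the lower (-2.12 log2, adjusted p = 4.1e-05). IFNβ raised 7 and lowered 2 in WT (35.3% of all genes called), with Abcb1a at 4.55 log2 (adjusted p = 1.4e-05). In Ifnar1-/- BMDMs 0 of the 23 differed 2-fold in either direction when Nec-1 was added to IFNβ+zVAD. Of all genes, 3.41% were at least 2-fold higher and 3.9% lower.

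A longer list of glucocorticoid-induced genes was counted on the same arrays. Of its 27 measured genes (of 32 listed), 3 were at least 2-fold higher and 3 at least 2-fold lower with IFNβ+zVAD+Nec-1 than with IFNβ+zVAD in Ifnar1-/- BMDMs, against 3.41% and 3.9% of all genes. Their median difference was 0.14 log2, and that of all genes 0.02 log2. Mertk, a receptor for engulfing dead cells, was 2.74 log2 higher, and the clock genes Per2 and Cry1 were 2.42 and 2.25 log2 higher. Cry1 was above background on 1 of 2 arrays with IFNβ+zVAD. Nfkbia, the inhibitor of NF-κB, differed by -1.02 log2, the formyl peptide receptor gene Fpr1 by -1.21 and Fam107a by -1.99. With LPS+zVAD+Nec-1 against LPS+zVAD in Ifnar1-/- BMDMs, 6 of the 27 were at least 2-fold higher and 7 lower. Of all genes, 9.24% were higher and 8.44% lower. Without the library labelled replicate 2 the counts were 8 and 6, against 5.76% and 8.63% of all genes.
In WT BMDMs, LPS raised 9 and lowered 6 of the 27, beside 16.3% and 24.8% of all genes, with Fpr1 at 6.58 log2 (adjusted p = 0.00085 from limma), Lcn2, an iron-sequestering protein, at 6.51 (adjusted p = 1.3e-05) and Angptl4, a lipase inhibitor, at -5.15 (adjusted p = 3.3e-05). LPS raised 8 and lowered 6 in Ifnar1-/- BMDMs (10.9% and 13.9% of all genes), where Mertk fell by 3.39 log2 (adjusted p = 7.9e-05). zVAD added to LPS raised 7 and lowered 6 in WT (12.9% and 21.8% of all genes), and Nec-1 added to that raised 3 and lowered 6 (18.7% and 9.77%). The insulin receptor substrate gene Irs2 was 3.13 log2 higher with zVAD (adjusted p = 0.00039) and 2.73 log2 lower with Nec-1 (a log2 fold change of -2.73, adjusted p = 0.0016). Adora3, an adenosine receptor gene, ran the other way, at -4.31 log2 (adjusted p = 4.8e-06) and 4.06 log2 (adjusted p = 1.6e-05).

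The circadian clock list was measured for 17 of 20 genes besides Per1. In WT BMDMs LPS raised 2 and lowered 8, beside 16.3% and 24.8% of all genes, with Nfil3, a repressor of D-box genes, at 1.40 log2 (adjusted p = 0.0015 from limma) and the D-box activators Dbp at -5.13 (adjusted p = 5.5e-05) and Tef at -3.94 (adjusted p = 2.4e-06). zVAD added to LPS raised 10 and lowered 1 (12.9% and 21.8% of all genes), and Nec-1 raised 0 and lowered 10 (18.7% and 9.77%). Bhlhe40, a clock repressor, was 5.34 log2 higher with zVAD (adjusted p = 1.0e-05), and Rora, an activator of Arntl, 4.46 log2 higher (adjusted p = 5.4e-05). With Nec-1 they were at -3.87 and -3.95 log2 (adjusted p = 0.00032 and 0.00024). LPS raised 1 and lowered 4 in Ifnar1-/- BMDMs (10.9% and 13.9% of all genes). When Nec-1 was added to IFNβ+zVAD in Ifnar1-/- BMDMs, 5 were at least 2-fold higher and 0 lower, against 3.41% and 3.9% of all genes. The 5 were Per2 and Cry1, which the previous list also holds, Nfil3 (1.997 log2), Tef (1.25) and Cry2 (1.17). With LPS+zVAD against LPS in the same genotype, 11 of the 17 were at least 2-fold higher and 0 lower, with 5.99% of all genes higher. With LPS+zVAD+Nec-1 against LPS+zVAD, 0 were higher and 7 lower, against 9.24% and 8.44% of all genes. Without the library labelled replicate 2 these counts were 0 and 8, against 5.76% and 8.63% of all genes.

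Genes that share the other inputs of Ddit4 and the metallothioneins were counted as well. Of 11 metal response genes, LPS raised 3 and lowered 2 in WT and raised 5 and lowered 1 in Ifnar1-/- BMDMs, beside 41.2% and 24.8% of all genes called. The cystine transporter gene Slc7a11 rose by 6.85 and 6.89 log2 in the 2 genotypes (adjusted p = 0.0010 and 0.0022 from limma) and the zinc importer gene Slc39a14 by 5.23 and 4.66 log2 (adjusted p = 1.4e-06 and 4.0e-05). With IFNβ+zVAD+Nec-1 against IFNβ+zVAD in Ifnar1-/- BMDMs, Mt1 and Mt2 were 2.73-fold and 12.05-fold higher. There, 0 of the 11 were at least 2-fold higher and 2 at least 2-fold lower, against 3.41% and 3.9% of all genes. The 2 were the zinc importer genes Slc39a14 (-1.08 log2) and Slc39a10 (-1.44). Mtf1, which encodes the metal sensor, read 9.79 to 10.67 log2 over all arrays.
Of 11 targets of ATF4 or p53, 0 were at least 2-fold higher in that comparison and 1 lower, against 3.41% and 3.9% of all genes. The 1 was Chac1 (-1.07 log2). Ddit4 was 41.3-fold higher there. With LPS+zVAD against LPS in Ifnar1-/- BMDMs, 8 of the 11 were at least 2-fold higher and 2 lower, with 5.99% of all genes higher. With LPS+zVAD+Nec-1 against LPS+zVAD, 1 was higher and 7 lower, against 9.24% and 8.44% of all genes. Without the library labelled replicate 2, 1 was higher and 8 lower (5.76% and 8.63%). The Ddit4 differences were 1.34 log2, then 1.34 log2 with that library and -1.17 log2 without it. The part of ATF4 or p53 was not tested. In WT BMDMs LPS raised 2 and lowered 1 of the 11 (41.2% of all genes called), with Psat1, a serine synthesis gene, at 2.54 log2 (adjusted p = 5.6e-06) and Sesn1 at -4.06 (adjusted p = 9.8e-07). zVAD added to LPS raised 3 and lowered 1 (34.7% of all genes called), with Mdm2, the p53 ubiquitin ligase gene, at 2.68 log2 (adjusted p = 2.3e-05), and Nec-1 lowered Mdm2 alone (-1.66 log2, adjusted p = 0.0023), a call lost without WT LPS+zVAD+Nec-1 replicate 1 (adjusted p = 0.059).

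Across the 16 group means, centred within each genotype, the genes fell into patterns that are given without a test, since the groups share slides and the Nec-1 arrays chose the genes. The mean for Ifnar1-/- LPS+zVAD+Nec-1 takes in the library that went against its label, and the correlations were not computed without it. Mt1 and Mt2 correlated at 0.95, Tsc22d3 and Zbtb16 at 0.91, Fkbp5 and Ddit4 at 0.87 and Per1 and Ddit4 at 0.84, and the lowest pair was Tsc22d3 and Mt2 at -0.29. Among all genes the patterns most like that of Fkbp5 were those of Ccdc92 (0.90), Ehmt1 (0.90), Man2a1 (0.89), Gdap2 (0.89) and Ddit4 (0.87). For Per1 they were Sh3pxd2b (0.86), Tigd2 (0.86), Frs2 (0.84), Malsu1 (0.84) and Ddit4 (0.84).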

How the data were processed

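Total RNA of 32 BMDM samples was labelled with Cy3 and hybridised to one-colour Agilent arrays. The authors deposited Feature Extraction 11.5.1.1 files, whose processed intensity is background-subtracted, and a table of normalized log2 values, used as an alternative. Per the labels limma was used upstream, with its version not given in the sources used here. Here, outlier spots (130 to 499 per array) were left out, log2 intensities were quantile-normalized, and a probe was kept when 50% or more of the arrays read it well above background. The brightest probe per gene gave 16021 genes. All 16 groups were fitted together in limma 3.58.1 (R 4.3.3), with 16 residual degrees of freedom, Benjamini-Hochberg adjustment and a threshold of 0.05, and the steps were tested on simulated data. The number of arrays limits precision. Replicate numbers share a slide, and same-numbered samples deviated together in 28 of 28 group pairs per genotype (correlations 0.32 to 0.67 in WT, 0.17 to 0.58 in Ifnar1-/-), so they pair the samples. The members and lists were chosen with earlier results of these data known. List genes were named as at most the 2 largest rises and 2 largest falls called per list and comparison, or at least 2-fold where no test was made. Alternatives were background correction, scaling, filters, probes, the arrays fitted, the slide as a block, and the authors' values.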

Additional observations from a re-analysis of the deposited data

Results flagged for a closer look

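Some differences ran in opposite directions in the genotypes on both slides of each. The difference between the genotypes was not tested in any of them, and genotype and slide cannot be told apart. For Nec-1 added to IFNβ+zVAD, the Ifnar1-/- difference exceeded that of WT by 2.92 log2 for Per1, 2.46 log2 for Klf9 and 5.29 log2 for Zbtb16. For Nec-1 added to LPS+zVAD it exceeded that of WT by 5.58 log2 for Tsc22d3, 5.24 log2 for Zbtb16, 3.71 log2 for Klf9, 1.76 log2 for Per1, 1.41 log2 for Mt2 and 1.003 log2 for Mt1. These 6 values include the library labelled Ifnar1-/- LPS+zVAD+Nec-1 replicate 2, which went against its label. Without it, an alternative chosen after seeing the data, they were 4.55 log2 for Tsc22d3, 2.82 log2 for Zbtb16, 3.60 log2 for Klf9, 1.05 log2 for Per1, 2.29 log2 for Mt2 and 1.38 log2 for Mt1. On the slide of that library the Ifnar1-/- differences of Mt1 and Mt2 were 0.10 and 0.02 log2. For zVAD added to IFNβ the Ifnar1-/- difference minus that of WT was -0.67 log2 for Klf9, -1.54 log2 for Ddit4 and -0.68 log2 for Mt1. The Ifnar1-/- differences by slide were -0.18 and -0.36 log2 for Klf9, -0.29 and -0.005 log2 for Ddit4 and -0.04 and -0.04 log2 for Mt1. The Ifnar1-/- arrays of Ddit4 and Mt1 overlapped, and in WT limma called 0 of the 9 genes. The share of all genes with such opposite directions was not counted.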

How the results depend on the processing

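The number of the 9 genes called changed as follows. With the replicate block, which pairs arrays by slide, limma called 2 in the LPS interaction and 2 in the IFNβ interaction, and it moved no other count by over 1.5 times. A fit of the arrays compared gave 2 in the LPS interaction, 1 in the IFNβ interaction and 0 for WT LPS+zVAD+Nec-1, and normexp gave 1 in the LPS interaction. Leaving out single arrays gave 1 to 2 for WT IFNβ, 1 to 3 for WT LPS+zVAD+Nec-1, 2 to 3 for Ifnar1-/- LPS, 5 to 6 for WT LPS and 0 to 1 for the IFNβ interaction. Without the library labelled Ifnar1-/- LPS+zVAD+Nec-1 replicate 2, the Nec-1 difference of Ddit4 turned to -1.17 log2, and without replicate 1 it was 3.85 log2. The cause was not tested. The Ifnar1-/- Zbtb16 call with LPS was also lost under normexp (-1.65 log2, adjusted p = 0.13 from limma) and with the authors' values (-2.31 log2, adjusted p = 0.053). Of 294 settings over 22 gene results, 263 kept direction and side of the threshold, and 0 reversed. The 22 include interactions of Klf9 and Sgk1 that were not called, where keeping the side means staying uncalled. Scaling by the 75th percentile moved the median of all genes from -0.17 to -0.02 log2 for WT IFNβ. With 2 arrays a group, all on slides of 1 genotype, small changes could not be resolved, and genotype levels cannot be told apart from slides.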
